A study of Mus musculus with 12 samples.

Results

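The genes described here are 8 regulators of tubular identity and metabolism, namely the transcription factor genes Hnf4a, Pax2, Pax8, Lhx1, Esrra, Ppara and Nr1h4 and the coactivator gene Ppargc1a. They were found by their Ensembl numbers among 32199 genes in the first of both deposited tables and among 31719 in the second, and all 8 are listed in both. The values are FPKM (fragment counts scaled to transcript length and to the mapped total of the library) of poly(A)-selected, strand-specific RNA-seq libraries from 12 mouse kidneys, each from a separate animal. PAD4 knockout mice (gene Padi4) were set against wild-type mice of a first batch, and mice labelled IL-33 knockout (gene Il33) against wild-type mice of a second batch, with 3 libraries in each of the 4 groups. All mice were C57BL/6 males of 8 weeks that had lost a kidney by surgery, recovered for 3 weeks, gone 24 h without water and received furosemide, a loop diuretic, 20 min before the contrast agent iodixanol was injected into a tail vein. The kidney was taken 24 h after iodixanol. Both wild-type groups therefore went through the same contrast injury procedure as the knockouts, and no kidney without it was analysed here. The extent of injury need not be equal, and counts of tubular injury markers are given below. The labels state no cell type to which either deletion is restricted, and the tables hold whole kidney, in which fewer cells of a type and less RNA per cell cannot be told apart.

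HNF4A is a nuclear receptor needed for proximal tubule cells to mature, and it also acts in liver and gut epithelium. PAX2, PAX8 and LHX1 build the nephron in the embryo, and PAX2 and PAX8 are kept in adult tubule and collecting duct cells. PGC-1α, the product of Ppargc1a, has no DNA-binding domain of its own and is recruited by receptors such as ERRα (Esrra) and PPARα (Ppara), through which it drives genes of mitochondria and fatty acid oxidation, the main fuel supply of the proximal tubule. FXR (Nr1h4) is the bile acid receptor, which the kidney tubule also expresses. Lower transcript of PGC-1α and of fatty acid oxidation genes is a known feature of acute kidney injury.

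The windows of 250 bases before the annotated starts, from RefSeq on GRCm38.p6, were available for all 8 genes, in 11 windows since Hnf4a and Pax2 have several starts. The 4 windows below are shown because each holds, within 100 bases of the start, a half-site of a factor family tied to these genes as background: HNF1, a family of kidney and liver factors known to bind promoters of HNF4A, and CREB, which is known to drive Ppargc1a in liver and muscle. Capitals mark GTTAAT (HNF1 half-site) or TGACG (CREB half-site), read on either strand, so that they appear as ATTAAC or CGTCA where the match is on the opposite strand. The Hnf4a window is at chr2:163546905-163547154 (plus strand), that of Nr1h4 at chr10:89506659-89506908 (minus strand), that of Ppargc1a at chr5:51567726-51567975 (minus strand) and that of Lhx1 at chr11:84525535-84525784 (minus strand). Each is printed 5′ to 3′ on the strand of its gene.
Hnf4a, second start: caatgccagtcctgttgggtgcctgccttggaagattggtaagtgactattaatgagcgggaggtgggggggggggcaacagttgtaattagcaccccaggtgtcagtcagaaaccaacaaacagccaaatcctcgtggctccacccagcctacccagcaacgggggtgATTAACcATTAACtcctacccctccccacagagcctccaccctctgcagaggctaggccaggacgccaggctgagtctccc
Nr1h4: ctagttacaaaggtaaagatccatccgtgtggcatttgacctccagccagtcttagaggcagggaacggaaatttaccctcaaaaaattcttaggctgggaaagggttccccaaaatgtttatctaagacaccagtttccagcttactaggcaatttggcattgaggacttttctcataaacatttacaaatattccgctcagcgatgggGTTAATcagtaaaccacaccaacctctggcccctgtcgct
Ppargc1a: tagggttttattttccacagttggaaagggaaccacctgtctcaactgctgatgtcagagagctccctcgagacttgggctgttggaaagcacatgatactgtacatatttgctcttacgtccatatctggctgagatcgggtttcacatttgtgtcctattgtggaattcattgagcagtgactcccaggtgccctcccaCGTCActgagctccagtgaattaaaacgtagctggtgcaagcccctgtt
Lhx1: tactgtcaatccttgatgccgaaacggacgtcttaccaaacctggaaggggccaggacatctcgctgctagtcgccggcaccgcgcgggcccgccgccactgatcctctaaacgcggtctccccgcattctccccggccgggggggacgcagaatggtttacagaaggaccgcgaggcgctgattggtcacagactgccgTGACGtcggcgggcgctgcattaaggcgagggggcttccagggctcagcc

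In the Hnf4a window a pair of GTTAAT matches lay on the opposite strand, beginning 81 and 74 bases before the start. The Nr1h4 window held a GTTAAT match 40 bases before the start. GTTAAT was found in 6.43% of all 32851 RefSeq windows of this length. A TGACG match began 49 bases before the start of Ppargc1a, on the opposite strand, and 50 bases before that of Lhx1, on the strand of the gene, and Ppara held another 222 bases before its start. TGACG was found in 17.8% of all windows. The extended nuclear receptor half-site AAGGTCA, which ERRα recognises, was found in 4.08% of all windows and in 0 of the 11 windows of these genes. These are matches of letters and not binding sites, and no binding data are part of the files.

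Padi4 itself was at 0.217, 0.497 and 0.187 FPKM in PAD4 knockout libraries, against 0.704, 1.06 and 1.67 FPKM in their wild type, and it was lower by limma (change -0.71 ± 0.19 (SE) on the log2(FPKM + 1) scale, adjusted p = 0.0147). That call did not hold in fits of every gene whatever its level (adjusted p = 0.162), without the trend (0.0579), without PAD4 knockout library 3 (0.0548) and without wild-type library 3 (0.0797). Il33 was at 1.14, 0.616 and 1.02 FPKM in libraries labelled IL-33 knockout, against 1.71, 1.13 and 3.64 FPKM in their wild type. Those groups overlap, and limma did not call Il33 (-0.65 ± 0.28 (SE), adjusted p = 0.099), so the label is used as given. It was called with quantile normalization (adjusted p = 0.0407), with the replicate number as a block (0.0408) and without wild-type library 2 (0.0348). In PAD4 knockout Il33 was lower, at 0.889, 1.58 and 1.28 FPKM against 3.57, 5.29 and 3.28 FPKM in wild type (-1.15 ± 0.23 (SE), adjusted p = 0.00208). In the first set, where wild type and knockout are both of batch 1, markers of other tissues were present and differed between the groups. Of 15 colon markers, 15 were lower in PAD4 knockout, with sums of 156 to 385 FPKM in PAD4 knockout libraries and 683 to 1175 FPKM in wild type. Of 9 lung markers tested, 9 were lower (sums of 42.6 to 208 FPKM in PAD4 knockout and 296 to 847 FPKM in wild type), and 7 of 8 smooth muscle markers were lower (62.6 to 241 FPKM in PAD4 knockout and 345 to 744 FPKM in wild type). In the second set the colon sums were 5.86 to 7.77 FPKM in libraries labelled IL-33 knockout and 20.4 to 41.4 FPKM in wild type, with most of the listed colon and lung markers near 0. The 10 kidney defining markers, such as Lrp2, Slc34a1 and Umod, were present in all groups, with library medians of 33.1 to 72.9 FPKM in PAD4 knockout and 14.9 to 35.9 FPKM in its wild type, and of 282 to 326 FPKM in libraries labelled IL-33 knockout and 72.3 to 109 FPKM in their wild type. Of 9 tested, 4 were higher and 0 lower in PAD4 knockout, and of 10 tested, 6 were higher and 1 lower in those labelled IL-33 knockout. Their sums were carried by Kap, a gene of the proximal tubule, and ran between 9907 and 25394 FPKM in PAD4 knockout and 5080 and 8250 FPKM in its wild type, and between 11769 and 14712 FPKM in libraries labelled IL-33 knockout and 13647 and 18452 FPKM in their wild type. Of 7 leukocyte markers tested, 6 were lower and 0 higher in PAD4 knockout (sums of 32.7 to 98.3 FPKM in PAD4 knockout and 102 to 274 FPKM in wild type), and of 5 tested, 2 were higher and 1 lower in libraries labelled IL-33 knockout (37.0 to 45.2 FPKM there and 15.1 to 31.4 FPKM in wild type). The part of these markers in the changes of the 8 genes was not tested beyond the covariate. Because FPKM are relative to all fragments of a library, each comparison was also fitted with the colon and lung marker score as a covariate. The calls of the 8 genes under that fit are given with each comparison. In both sets every knockout library had a lower colon sum than every wild-type one. The score thus went with genotype, and that fit cannot tell them apart. In the second set 3 colon markers and 1 lung marker reached the level tested, and Lgals4 carried most of the colon sum. Under that fit Padi4 in PAD4 knockout was at -0.097 by limma (adjusted p = 0.9999).

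In PAD4 knockout kidneys Pax2, Lhx1 and Ppargc1a were higher than in wild type, and no gene of the 8 was lower. Their means stood at 2.19 times (Pax2), 3.73 times (Lhx1) and 2.28 times (Ppargc1a) those of wild type. Of the 7 genes above the level tested, 3 passed as higher and 0 as lower, where 8.89% of all 13986 genes tested passed as higher and 8.79% as lower (17.7% in all). In 7 of the 8 genes every PAD4 knockout library was above every wild-type library. Ppara, under the level tested, is among these 7. Of all genes tested, that held for 17.2%. The median change of the 7 tested genes was 0.73 on the log2(FPKM + 1) scale, and that of all genes 0.016.

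**Figure D1:**
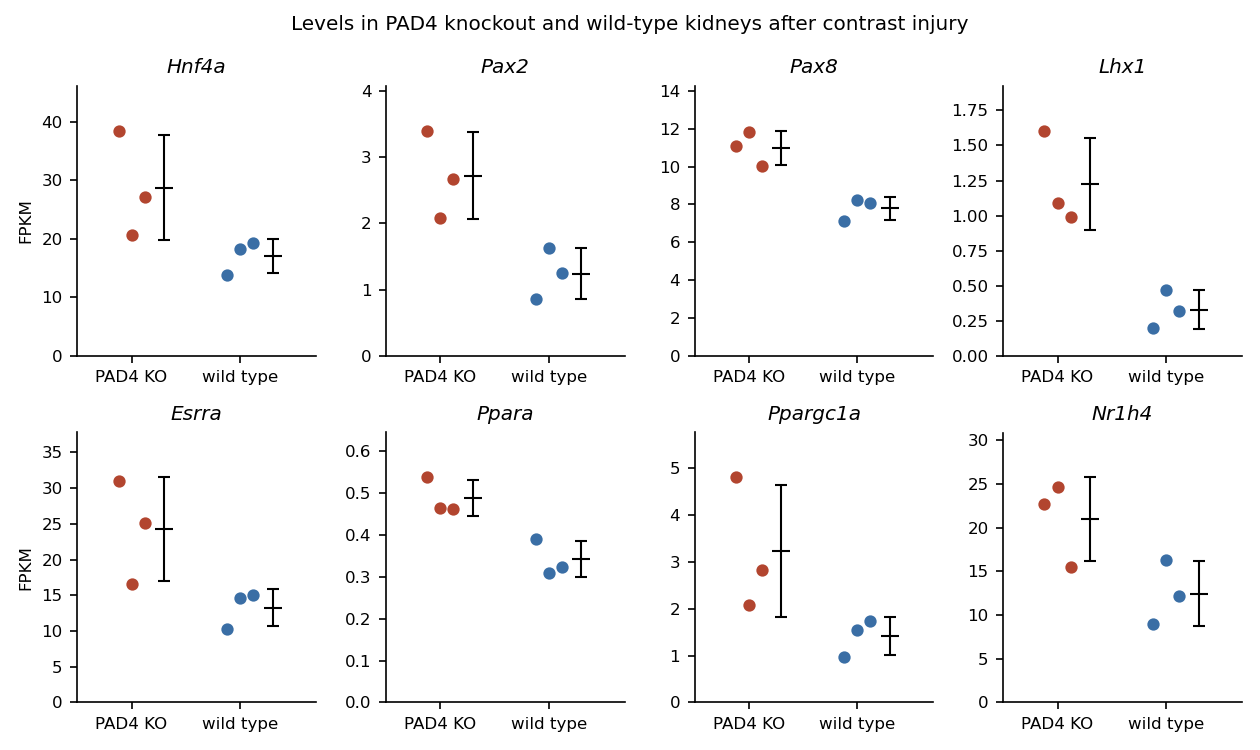
FPKM of the 8 genes in PAD4 knockout (red) and wild-type (blue) kidneys of the first set, a point per library in the order 1 to 3, with the mean and SD of 3 libraries beside the points in black. The groups are apart in every panel but that of Nr1h4, where PAD4 knockout library 3 (15.5 FPKM) is below wild-type library 2 (16.3 FPKM).

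Among the factors of nephron identity, Hnf4a was at 38.4, 20.7 and 27.1 FPKM in PAD4 knockout libraries 1 to 3, against 13.8, 18.2 and 19.2 FPKM in wild type. The groups did not overlap, but the lowest PAD4 knockout library lay close to the highest wild-type one. The change of 0.69 ± 0.31 (SE; 95% interval 0.03 to 1.34) did not pass (adjusted p = 0.14). Pax2, one of the earliest factors of the nephric lineage, was at 3.39, 2.08 and 2.67 FPKM in PAD4 knockout and at 0.861, 1.62 and 1.24 FPKM in wild type. Every PAD4 knockout library was above every wild-type library, and Pax2 rose (0.73 ± 0.22 (SE), adjusted p = 0.0267). Pax8, which works beside PAX2 in nephron formation, was at 11.1, 11.8 and 10.04 FPKM in PAD4 knockout and at 7.11, 8.24 and 8.07 FPKM in wild type. These groups were apart and the tightest of the 8 relative to their means, yet the change of 0.44 ± 0.26 (SE; 95% interval -0.10 to 0.99) did not pass (adjusted p = 0.263). The LIM homeobox gene Lhx1, needed in the early renal vesicle, was at 1.60, 1.09 and 0.989 FPKM in PAD4 knockout and at 0.197, 0.472 and 0.317 FPKM in wild type. The lowest PAD4 knockout value was above the highest wild-type one by more than the SD of either group, and Lhx1 rose (0.74 ± 0.18 (SE), adjusted p = 0.00748).

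Among the metabolic regulators, Ppargc1a was at 4.80, 2.08 and 2.82 FPKM in PAD4 knockout, against 0.964, 1.55 and 1.75 FPKM in wild type. PAD4 knockout library 1 was the highest and the other two stood nearer to wild type, and Ppargc1a rose (0.77 ± 0.25 (SE), adjusted p = 0.0358). Brown fat also expresses Ppargc1a. The brown fat gene Ucp1 was at 0.0710, 0.0403 and 80.0 FPKM in PAD4 knockout libraries 1 to 3, and library 3 had the middle value of Ppargc1a. In wild type Ucp1 was at 0.0570, 3.04 and 0.319 FPKM. The part of fat in the level of Ppargc1a was not tested. Esrra, the gene of ERRα, was at 31.0, 16.6 and 25.1 FPKM in PAD4 knockout and at 10.3, 14.6 and 15.0 FPKM in wild type. The groups were apart with a narrow gap, and the change of 0.80 ± 0.31 (SE; 95% interval 0.15 to 1.45) did not pass (adjusted p = 0.0832). Ppara was at 0.537, 0.465 and 0.462 FPKM in PAD4 knockout and at 0.391, 0.310 and 0.324 FPKM in wild type, a small gap without overlap. Its mean in the 6 libraries was under the minimum of 0.5 FPKM, so limma did not test it (exact two-sided permutation p = 0.1). Nr1h4 was at 22.7, 24.6 and 15.5 FPKM in PAD4 knockout and at 8.93, 16.3 and 12.2 FPKM in wild type. Its groups overlap, and its change of 0.72 ± 0.31 (SE) did not pass (adjusted p = 0.116; exact permutation p = 0.2). For the other 7 genes the exact permutation p, two-sided, was 0.1, and a design of 3 against 3 libraries cannot give a smaller one.

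The calls in the PAD4 comparison rested on few libraries. Without wild-type library 1, the lowest of its group for 7 of the 8 genes, 0 of 7 passed by limma (Lhx1 adjusted p = 0.0561). Without PAD4 knockout library 1, the highest of its group for 6 genes, or without wild-type library 3, Lhx1 alone passed, and Pax2 lost its call without PAD4 knockout library 3 (adjusted p = 0.0598). With no filter on level 0 of the 8 genes passed, as did 0 of all genes. With the score of the colon and lung markers as a covariate, all 7 changes kept a positive sign but 0 passed by limma (adjusted p = 0.9999 for each; changes of 0.13 for Hnf4a, 0.19 for Ppargc1a, 0.24 for Esrra, 0.50 for Pax2, 0.64 for Lhx1, 0.69 for Pax8 and 1.39 for Nr1h4), and 67 of all genes did, against 2473 without it.

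In kidneys labelled IL-33 knockout, Hnf4a, Pax2, Lhx1, Esrra and Ppargc1a were higher than in their wild type, and no gene of the 8 was lower. Esrra stood at 2.86 times and Ppargc1a at 2.72 times the wild-type mean, Pax2 at 1.91 times, Hnf4a at 1.82 times and Lhx1 at 1.73 times. So 5 of 8 passed as higher and 0 as lower, where 22.2% of all 14513 genes tested passed as higher and 16.8% as lower (39.1% in all). The same 5 genes had no overlap between the groups, which held in that direction for 30.2% of all genes tested. The median change of the 8 genes was 0.72, and that of all genes 0.044.

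**Figure D2:**
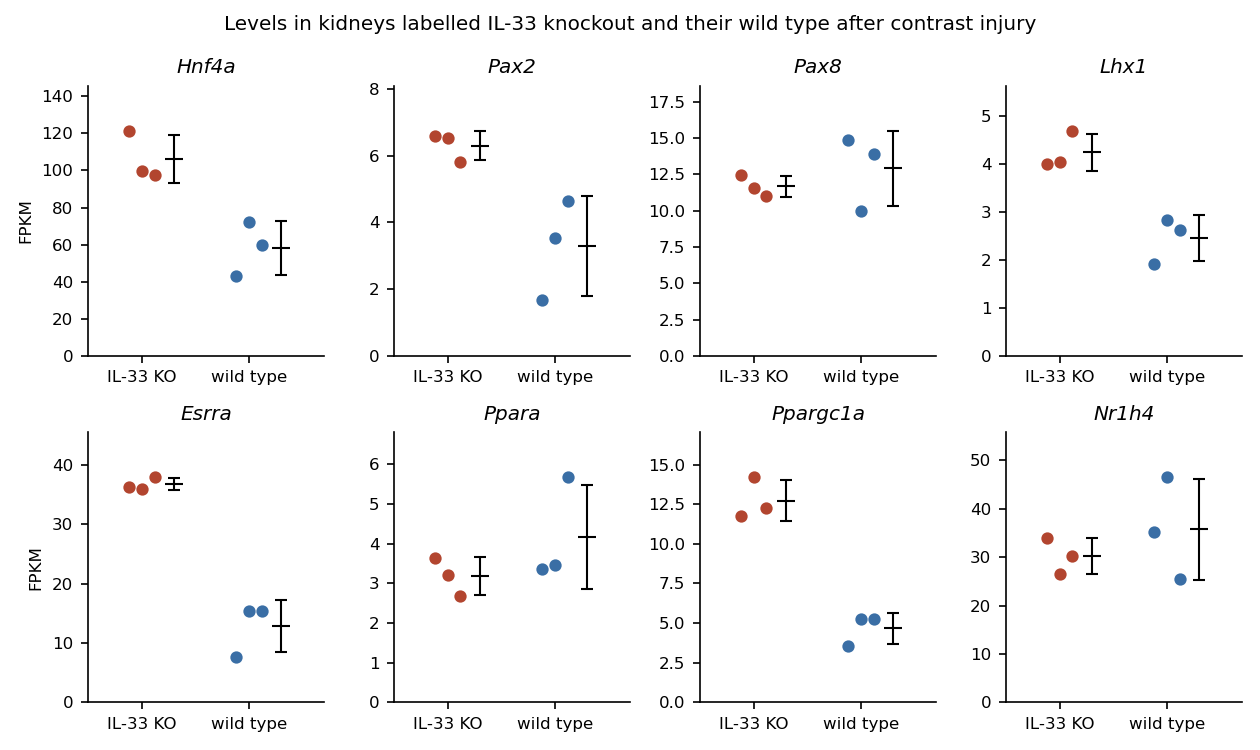
FPKM of the 8 genes in kidneys labelled IL-33 knockout (red) and in wild-type kidneys of the second set (blue), a point per library in the order 1 to 3, with the mean and SD of 3 libraries in black. The groups are apart for Hnf4a, Pax2, Lhx1, Esrra and Ppargc1a and overlap for Pax8, Ppara and Nr1h4.

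Esrra was at 36.4, 36.0 and 37.9 FPKM in libraries labelled IL-33 knockout, against 7.73, 15.4 and 15.5 FPKM in wild type. The 3 knockout values lay within 2 FPKM of each other, far above the highest wild-type library, and Esrra rose by 1.51 ± 0.23 (SE; adjusted p = 0.00205). Ppargc1a was at 11.8, 14.2 and 12.2 FPKM in kidneys labelled IL-33 knockout and at 3.55, 5.25 and 5.24 FPKM in wild type. The lowest knockout library was more than 6 FPKM above the highest wild-type one, and the rise of 1.28 ± 0.15 (SE) had the smallest adjusted p of the 8 genes (0.000625). Hnf4a was at 121, 99.9 and 97.5 FPKM in kidneys labelled IL-33 knockout and at 42.9, 72.1 and 59.7 FPKM in wild type. The groups were well apart, and Hnf4a rose (0.88 ± 0.19 (SE), adjusted p = 0.00819). Lhx1 was at 3.99, 4.04 and 4.68 FPKM against 1.91, 2.83 and 2.63 FPKM in wild type, again without overlap, and it rose (0.61 ± 0.14 (SE), adjusted p = 0.0114). Pax2 was at 6.59, 6.51 and 5.80 FPKM against 1.68, 3.55 and 4.65 FPKM in wild type. Wild-type library 1 was far below the other two, the gap between the groups was narrow, and Pax2 rose (0.83 ± 0.25 (SE), adjusted p = 0.0344).

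Pax8, Ppara and Nr1h4 did not pass, and the mean of each was lower in the libraries labelled IL-33 knockout. Pax8 was at 12.5, 11.6 and 11.03 FPKM in those libraries and at 14.8, 9.99 and 13.9 FPKM in wild type (-0.12, 95% interval -0.46 to 0.23, adjusted p = 0.563). Ppara was at 3.64, 3.21 and 2.68 FPKM against 3.36, 3.47 and 5.67 FPKM in wild type (-0.28, 95% interval -0.72 to 0.15, adjusted p = 0.264). For Nr1h4 the values were 34.0, 26.5 and 30.3 FPKM against 35.3, 46.5 and 25.6 FPKM in wild type (-0.20, 95% interval -0.67 to 0.27, adjusted p = 0.468). For Pax8 and Nr1h4 the wild-type libraries spanned all the knockout values, while for Ppara 2 of the 3 knockout values were below all wild-type ones. The intervals leave room for changes in either direction. The exact permutation p was 0.1 for each of the 5 genes that passed and between 0.4 and 0.5 for the other 3.

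Hnf4a, Esrra and Ppargc1a passed in each of the 6 fits that left out a library. Pax2 lost its call without any of the 3 libraries labelled IL-33 knockout (adjusted p of 0.0967, 0.0928 and 0.0755) and without wild-type library 2 (0.0559), and Lhx1 lost it without library 3 of those labelled IL-33 knockout (0.0571). With no filter on level Pax2 lost its call (adjusted p = 0.101). With the colon and lung score as a covariate, which this design cannot separate from genotype, the changes of the 5 genes and their errors were larger. Esrra (2.68 ± 0.52 (SE)), Pax2 (2.32 ± 0.43) and Ppargc1a (1.93 ± 0.35) passed, and Hnf4a (1.30 ± 0.55, adjusted p = 0.152) and Lhx1 (1.00 ± 0.35, adjusted p = 0.105) did not.

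Pax2, Lhx1 and Ppargc1a were thus higher in both comparisons, Hnf4a and Esrra passed in that of IL-33 knockout alone, and Pax8, Ppara and Nr1h4 passed in neither. No wild-type library is shared between the comparisons. Whether the changes differ was tested as PAD4 change minus IL-33 change over all 12 libraries. Of the 7 genes tested in both tables, 0 passed by limma, where 12.4% of all 13010 genes did. In 6.23% of all genes the difference passed as positive (PAD4 change above IL-33 change) and in 6.18% as negative. Of the 7 genes, 2 had an unadjusted p under 0.05, as did 27.3% of all genes, a like share. These were Nr1h4, with a difference of 0.92 (95% interval 0.14 to 1.69, adjusted p = 0.115), and Pax8, with 0.56 (95% interval 0.05 to 1.07, adjusted p = 0.144). Esrra differed by -0.71 (95% interval -1.52 to 0.10, adjusted p = 0.246) and Ppargc1a by -0.51 (95% interval -1.18 to 0.16, adjusted p = 0.314). For Hnf4a, Pax2 and Lhx1 the differences were -0.19, -0.10 and 0.13. The changes of Hnf4a and Esrra, called in a single comparison, were thus not shown to differ between the comparisons. With array weights Esrra alone passed this test (adjusted p = 0.0439).

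**Figure D3:**
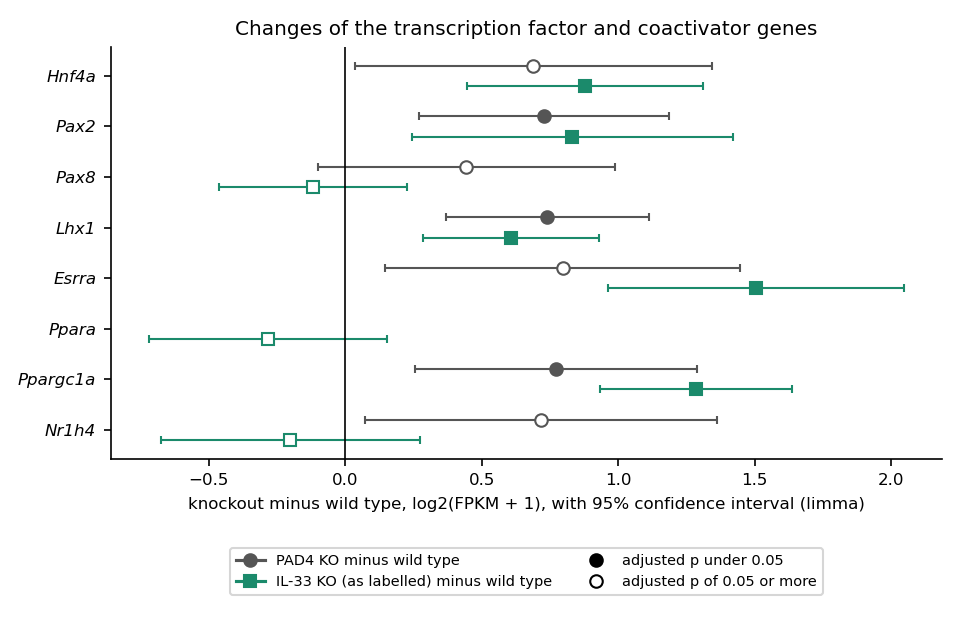
Change of each gene in log2(FPKM + 1), as knockout minus wild type, with its 95% interval from limma, for PAD4 knockout (grey circles) and for kidneys labelled IL-33 knockout (green squares); filled symbols passed at an adjusted p under 0.05. Pax2, Lhx1 and Ppargc1a are filled in both comparisons, and the symbols of Pax8 and Nr1h4 are right of 0 in the first and left of it in the second. Ppara was not tested in the first set.

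By level, Hnf4a had the highest mean in all 4 groups, at 28.7 ± 8.98 FPKM in PAD4 knockout and 17.1 ± 2.90 FPKM in its wild type, and at 106 ± 13.1 FPKM in kidneys labelled IL-33 knockout and 58.3 ± 14.7 FPKM in theirs (SD, n = 3 each). FPKM are per length and can be ranked between genes of a table. In both groups of the first set the order was Hnf4a, Esrra, Nr1h4, Pax8, Ppargc1a and Pax2, with Lhx1 and Ppara last. Hnf4a, Esrra and Nr1h4 overlapped with each next one in that order, as did Ppargc1a and Pax2, while Nr1h4 and Pax8 did not overlap in either group. Lhx1 (1.23 ± 0.330 FPKM) was above Ppara (0.488 ± 0.0425 FPKM) in PAD4 knockout without overlap, and in wild type Lhx1 (0.329 ± 0.138 FPKM) and Ppara (0.342 ± 0.0433 FPKM) overlapped. In kidneys labelled IL-33 knockout the order was Hnf4a, Esrra, Nr1h4, Ppargc1a, Pax8, Pax2, Lhx1 and Ppara, and only Ppargc1a and Pax8 overlapped as neighbours. In the wild type of that set Hnf4a and Nr1h4 overlapped, Pax8 (12.9 ± 2.57 FPKM) and Esrra (12.9 ± 4.43 FPKM) came next and overlapped as well, and Ppargc1a, Ppara, Pax2 and Lhx1 each overlapped with the next. Ppara was the gene whose level was most unlike between the tables, at 0.310 to 0.537 FPKM in the first and 2.68 to 5.67 FPKM in the second, which were normalized apart and are only set side by side here.

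The genes moved together between libraries to different degrees. Over the 12 libraries, centred within each table, Hnf4a, Pax2, Lhx1, Esrra and Ppargc1a correlated with each other at Pearson r of 0.898 to 0.977, highest for Esrra with Ppargc1a. Pax8 and Nr1h4 correlated with those 5 genes at 0.048 to 0.487 and with each other at 0.509. These r describe 12 libraries that share the knockout contrast and each library's make-up, and so carry no p. Wild-type library 1 was the lowest of its group for 7 of the 8 genes in the first set and for 6 in the second.

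**Figure D4:**
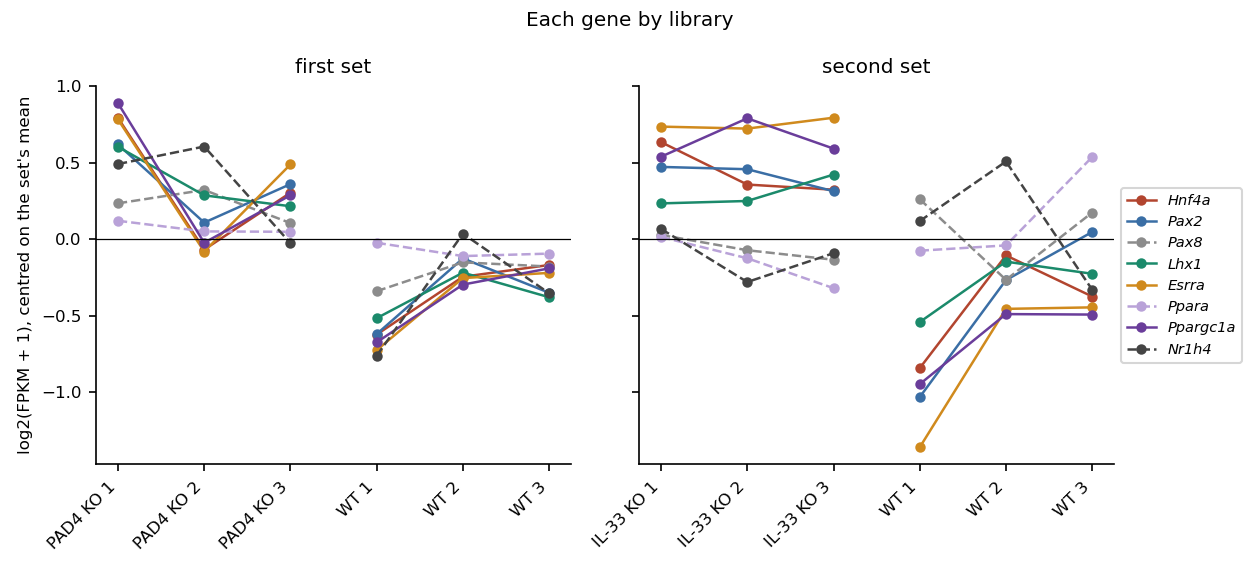
Each gene by library as log2(FPKM + 1), centred on the mean of the 6 libraries of its set, with knockout libraries left of wild-type (WT) ones; lines join the points of a gene within a group and imply no order of the libraries. Solid lines are Hnf4a, Pax2, Lhx1, Esrra and Ppargc1a, which run close together in both sets, and dashed lines are Pax8, Ppara and Nr1h4.

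Among 3794 genes with a mean of at least 5 FPKM in both tables, those most like Hnf4a were Chac2 (r = 0.986), Nr2f6 (0.985) and Rnf5 (0.985). The 3 nearest to Pax2 included Nr1h3 (0.974) and Smco4 (0.973). Nearest to Lhx1 were St6galnac2, Fmo1 and Rmnd1 (0.982, 0.974 and 0.972), and to Esrra Gtf2i, Dhrs3 and Csf1r (0.987, 0.983 and 0.981). Dhrs3, a retinaldehyde reductase, was also the nearest to Ppargc1a (0.992), followed by Kidins220 (0.985) and Slc33a1 (0.981). Csf1r is a receptor of macrophages, and it was at 11.7, 12.7 and 12.1 FPKM in libraries labelled IL-33 knockout, against 1.63, 2.74 and 3.82 FPKM in wild type (adjusted p = 0.00049). Of the leukocyte markers, Lyz2 also rose there, to 18.5 ± 2.08 FPKM against 3.53 ± 2.00 FPKM in wild type (limma adjusted p = 0.000786). Cd68, another macrophage marker, went the other way there, at 4.14 ± 0.733 FPKM against 12.4 ± 3.98 FPKM in wild type (adjusted p = 0.00281). The likeness to Pax8 was lower, at 0.889 for Trim8, 0.863 for Chka and 0.859 for Wasl, as was that to Nr1h4, whose 3 nearest included Blvra (0.909) and Ctsz (0.865).

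Beside the list counts below stand the shares over all genes tested, 8.89% higher and 8.79% lower in PAD4 knockout. In the IL-33 comparison they were 22.2% higher and 16.8% lower. Calls of list genes under the colon and lung covariate are not given here. Under it 67 of all genes passed by limma in PAD4 knockout, against 2473 without it. Among partner receptors and HNF factors, 2 of 16 tested rose in PAD4 knockout and 0 fell (median change 0.37). Esrrg, the gene of ERRγ, was among them, at 1.10 ± 0.226 FPKM against 0.399 ± 0.155 FPKM in wild type (adjusted p = 0.0254). In kidneys labelled IL-33 knockout 9 of 17 rose and 2 fell (median 0.58). Esrrg rose there too, to 9.49, 9.57 and 9.70 FPKM against 3.58, 4.45 and 4.55 FPKM in wild type (1.03 ± 0.11 (SE), adjusted p = 0.000421). Vdr, the vitamin D receptor, was at 40.1 ± 2.94 FPKM against 19.5 ± 0.800 FPKM in wild type (adjusted p = 0.000215), and Nr3c1, the glucocorticoid receptor, at 8.28 ± 0.401 FPKM against 3.67 ± 0.889 FPKM in wild type (adjusted p = 0.00195). Nr2f2, the gene of COUP-TFII, also rose (adjusted p = 0.00414).

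Of the coregulators and factors of mitochondrial biogenesis, 2 of 21 rose and 0 fell in PAD4 knockout (median 0.064). The share that rose was near that of all genes. In kidneys labelled IL-33 knockout 8 of 21 rose and 1 fell (median 0.11). Sirt3, a mitochondrial deacetylase, rose in PAD4 knockout to 4.24 ± 1.50 FPKM against 1.68 ± 0.533 FPKM in wild type (adjusted p = 0.0134). Perm1, a muscle-enriched regulator downstream of PGC-1α and ERRs, rose in kidneys labelled IL-33 knockout, to 3.11, 2.88 and 2.03 FPKM against 0.691, 0.434 and 0.955 FPKM in wild type (1.12 ± 0.17 (SE), adjusted p = 0.00186), while the PGC-1-related coactivator gene Pprc1 fell to 2.22, 2.10 and 2.34 FPKM against 5.79, 4.36 and 7.01 FPKM in wild type (-1.04 ± 0.16 (SE), adjusted p = 0.00185). Ppargc1b, the closest relative of Ppargc1a, passed in neither comparison, at 1.63 ± 0.293 FPKM in PAD4 knockout against 1.52 ± 0.407 FPKM in wild type and at 1.32 ± 0.113 FPKM in kidneys labelled IL-33 knockout against 1.82 ± 0.341 FPKM in wild type.

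Other nephron transcription factors went both ways, with 6 of 24 higher and 3 lower in PAD4 knockout. In kidneys labelled IL-33 knockout 9 of 25 were higher and 4 lower, and the share lower was near that of all genes. Sox9, which is induced in injured tubules and is kept in both that list and the injury list, fell to 0.243, 1.71 and 0.324 FPKM in PAD4 knockout against 3.13, 3.11 and 3.49 FPKM in wild type (adjusted p = 0.00142). It fell to 0.162, 0.287 and 0.154 FPKM in kidneys labelled IL-33 knockout against 20.9, 6.24 and 12.1 FPKM in wild type (-3.41 ± 0.35 (SE), adjusted p = 0.000353). Sox4 fell in PAD4 knockout, to 1.80 ± 0.652 FPKM against 5.43 ± 2.25 FPKM in wild type (adjusted p = 0.00569). Tfap2b, a distal nephron factor, rose in PAD4 knockout to 5.67 ± 1.56 FPKM against 1.98 ± 0.945 FPKM in wild type, as did Emx1, to 8.25 ± 2.99 FPKM against 3.15 ± 1.40 FPKM in wild type (adjusted p = 0.00474 and 0.0131). Maf, a transcription factor of the proximal tubule, rose in kidneys labelled IL-33 knockout to 15.7 ± 2.32 FPKM against 4.99 ± 0.706 FPKM in wild type (adjusted p = 0.000279), and Cux1 rose and Tfap2a fell there (adjusted p = 0.00881 and 0.00897).

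Proximal tubule differentiation genes, many of which HNF4A is known to activate, had larger median changes than the 8 regulators in both comparisons. In PAD4 knockout 18 of 24 rose and 0 fell, with a median change of 1.49. Slc34a1, the sodium-phosphate cotransporter of the brush border, was at 50.5, 18.1 and 59.0 FPKM in PAD4 knockout against 4.73, 3.61 and 7.56 FPKM in wild type (2.68 ± 0.38 (SE), adjusted p = 0.000178). Slc13a1, a sulfate transporter, was at 5.65 ± 1.42 FPKM against 0.447 ± 0.171 FPKM in wild type (adjusted p = 9.32e-06), with the anion transporter gene Slc22a8 and the dicarboxylate transporter gene Slc13a3 also among the strongest. In kidneys labelled IL-33 knockout 17 of 25 rose and 3 fell, with a median of 1.61. Gatm, the first enzyme of creatine synthesis, was at 177, 94.6 and 169 FPKM against 3.82, 3.77 and 4.47 FPKM in wild type (4.83 ± 0.23 (SE), adjusted p = 1.82e-05). Lrp2, the endocytic receptor megalin, was at 69.1 ± 9.23 FPKM against 8.43 ± 1.82 FPKM in wild type (adjusted p = 3.42e-05), and Slc3a1 and Cubn rose as well. Some thick ascending limb markers rose as well, 3 of 8 in PAD4 knockout and 6 of 8 in those labelled IL-33 knockout, with 0 lower in either. Their sums overlapped in the first set (154 to 677 FPKM in PAD4 knockout and 116 to 266 FPKM in wild type), as did the groups of Cldn10, called there. Podocyte markers did not rise in PAD4 knockout, with 0 of 6 tested higher and 1 lower (median change -0.48). In kidneys labelled IL-33 knockout 3 of 7 podocyte markers tested rose and 0 fell (median 0.20).

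Known targets of PGC-1α and ERRα, mostly mitochondrial enzymes and subunits, included many that rose in each comparison. In PAD4 knockout 10 of 19 rose and 0 fell, with a median change of 1.89. Acadm, the medium-chain acyl-CoA dehydrogenase, was at 224, 68.0 and 142 FPKM in PAD4 knockout against 5.91, 6.63 and 7.53 FPKM in wild type (4.09 ± 0.37 (SE), adjusted p = 3.97e-06). Subunits of respiratory complexes followed, with Cox5b at 187 ± 93.1 FPKM against 27.9 ± 4.85 FPKM in wild type, Cox6a1 at 498 ± 238 FPKM against 79.5 ± 11.7 FPKM in wild type and Sdhb at 105 ± 47.9 FPKM against 16.0 ± 4.42 FPKM in wild type (adjusted p of 0.000156, 0.000183 and 0.000183). In each of these, PAD4 knockout library 1 was the highest and library 2 the lowest of the group, the same order as for Ppargc1a, Esrra and Hnf4a. The sums of the kidney defining markers had that order too (25394, 9907 and 15930 FPKM in PAD4 knockout libraries 1 to 3). Those of the colon markers had the reverse order (156, 385 and 233 FPKM). The part of library make-up in this order was not tested. In kidneys labelled IL-33 knockout 13 of 19 rose and 1 fell, with a median of 0.44. Ndufs1, a complex I subunit, was at 30.7, 31.4 and 29.8 FPKM against 14.6, 16.9 and 14.9 FPKM in wild type (0.94 ± 0.09 (SE), adjusted p = 0.000278). The ADP/ATP carrier gene Slc25a4 was at 138 ± 6.78 FPKM against 67.5 ± 6.81 FPKM in wild type, Sod2 at 27.3 ± 0.883 FPKM against 15.3 ± 1.23 FPKM in wild type and Idh3a at 39.3 ± 2.67 FPKM against 19.6 ± 3.20 FPKM in wild type.

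Of the PPARα targets, 0 of 27 rose and 19 fell in kidneys labelled IL-33 knockout, with a median change of -0.92, where Ppara itself did not pass. Plin2, which coats lipid droplets, was at 22.9, 24.7 and 24.3 FPKM against 1352, 1097 and 1088 FPKM in wild type (-5.56 ± 0.11 (SE), adjusted p = 3.06e-07). Pdk4, the kinase that turns off pyruvate dehydrogenase, was at 3.40, 3.82 and 5.33 FPKM against 453, 341 and 359 FPKM in wild type (-6.22 ± 0.16 (SE), adjusted p = 1.29e-06). Angptl4, an inhibitor of lipoprotein lipase, fell to 5.65 ± 1.16 FPKM against 67.3 ± 11.5 FPKM in wild type, and Ehhadh, a peroxisomal enzyme of fatty acid oxidation, to 199 ± 16.4 FPKM against 599.9 ± 29.7 FPKM in wild type (adjusted p = 2.21e-05 and 4.13e-05). In PAD4 knockout 6 of 25 rose and 2 fell, with a median of 0.39. Ech1, an enoyl-CoA isomerase of peroxisomes and mitochondria, was at 567, 220 and 298 FPKM against 6.62, 6.82 and 7.17 FPKM in wild type (5.41 ± 0.35 (SE), adjusted p = 5.4e-08). Acadl, a mitochondrial acyl-CoA dehydrogenase, at 160 ± 78.5 FPKM against 29.9 ± 2.87 FPKM in wild type, rose too (adjusted p = 0.000429), as did Acadm, which is a member of this list as well as of that of PGC-1α.

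**Figure D5:**
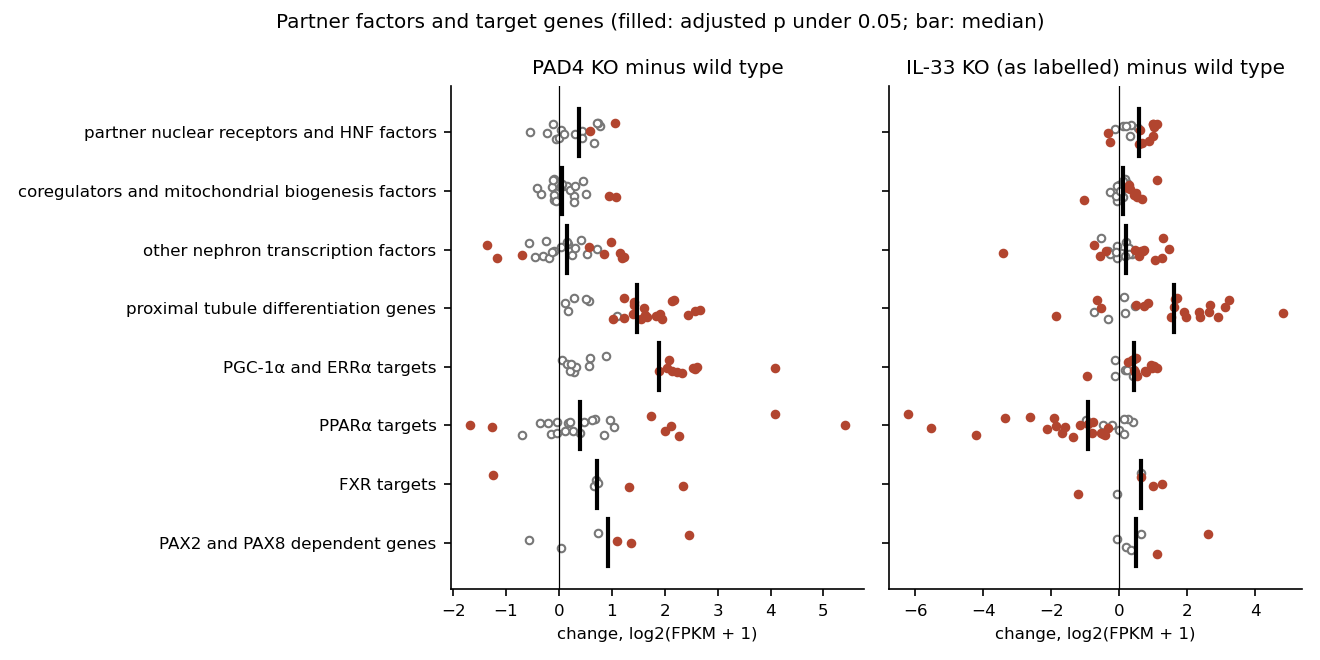
Changes of the genes of 8 lists in log2(FPKM + 1), as knockout minus wild type, for PAD4 knockout (left) and kidneys labelled IL-33 knockout (right); a point is a gene, filled at an adjusted p under 0.05, and the bar is the list's median. The median of PPARα targets is 0.39 on the left and -0.92 on the right, and that of PGC-1α and ERRα targets is 1.89 and 0.44.

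Of the FXR targets, 2 of 6 rose and 1 fell in PAD4 knockout, and 3 of 6 rose and 1 fell in kidneys labelled IL-33 knockout. Slc51b, a subunit of the basolateral organic solute transporter, rose in both, to 15.5, 21.8 and 12.8 FPKM in PAD4 knockout against 4.65, 6.28 and 7.03 FPKM in wild type, and to 26.6, 18.1 and 22.0 FPKM in kidneys labelled IL-33 knockout against 9.87, 7.04 and 9.01 FPKM in wild type (adjusted p = 0.00376 and 0.00103). Its partner subunit gene Slc51a rose in kidneys labelled IL-33 knockout (adjusted p = 0.0239). Nr0b2, the gene of the repressor SHP, rose there to 3.06 ± 0.785 FPKM against 1.08 ± 0.631 FPKM in wild type (adjusted p = 0.0146). Abcc2, an apical efflux pump, rose in PAD4 knockout to 24.7 ± 8.89 FPKM against 3.96 ± 1.17 FPKM in wild type (adjusted p = 0.000109). Sdc1 fell in both (adjusted p = 0.00548 and 0.00684). Of genes that depend on PAX2 and PAX8, 3 of 6 rose in PAD4 knockout and 2 of 6 in kidneys labelled IL-33 knockout, with 0 lower in either. Cdh16, the kidney-specific cadherin, rose in both, to 95.3, 52.0 and 65.5 FPKM in PAD4 knockout against 28.0, 32.8 and 33.9 FPKM in wild type, and to 286, 279.7 and 265 FPKM in kidneys labelled IL-33 knockout against 106, 139 and 142 FPKM in wild type (adjusted p = 0.0233 and 0.00052). Slc14a2, a urea transporter of the collecting duct, also passed in both (adjusted p = 0.00626 and 0.0424), but its PAD4 knockout libraries, at 28.9, 1.06 and 11.3 FPKM, overlapped with wild type at 0.173, 0.771 and 1.17 FPKM. Of the tubular injury markers, 7 of 12 fell and 0 rose in PAD4 knockout, and 8 of 11 fell and 1 rose in kidneys labelled IL-33 knockout, and their part in the changes of the 8 genes was not tested.

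Hnf4a and Esrra share their locus with a gene on the other strand in a GENCODE mouse annotation. Pax2, Pax8 and Ppargc1a also overlap such genes. Their highest value was 0.996 FPKM, for 1700039E22Rik at Pax2 in library 1 labelled IL-33 knockout. The antisense transcript Hnf4aos was at 4.99, 1.91 and 3.29 FPKM in PAD4 knockout against 0.651, 1.17 and 0.789 FPKM in wild type, and at 6.09, 4.54 and 4.00 FPKM in kidneys labelled IL-33 knockout against 2.33, 4.70 and 3.05 FPKM in wild type, in all libraries far below Hnf4a. Trmt112, which overlaps Esrra, was at 18.1, 13.9 and 12.7 FPKM in PAD4 knockout against 12.0, 10.1 and 13.2 FPKM in wild type, and at 17.3, 17.4 and 18.2 FPKM in kidneys labelled IL-33 knockout against 25.8, 26.7 and 28.5 FPKM in wild type, so the second set has it lower in each knockout library where Esrra was higher. Without overlap but within 1000 bases lie Prdx5, on the strand of Esrra, and Lhx1os, on the strand opposite to Lhx1. Prdx5 was at 436, 162 and 245 FPKM in PAD4 knockout against 141, 99.5 and 162 FPKM in wild type. In kidneys labelled IL-33 knockout it was at 317, 344 and 315 FPKM against 410, 398 and 341 FPKM in wild type. Lhx1os was at 2.04, 1.37 and 1.13 FPKM in PAD4 knockout against 0.694, 0.734 and 0.816 FPKM in wild type. The part of these neighbours was not tested. The libraries are strand-specific per the labels' protocols, but whether counting used the strand is not given in the sources used here.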

How the data were processed

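Kidney RNA of 12 mice in 4 groups of 3 was analysed, and the series' design text calls the 3 of a group independent biological replicates. Per the file headers, the authors deposited FPKM values, with both sets in tables of their own and the libraries as columns. The tools in the submitters' processing notes are HISAT2 and StringTie, FastQC and cutadapt, and DESeq2 and edgeR, without versions or roles. Which genome build and annotation were used is not given here by any source, and only the RefSeq windows carry coordinates. Symbols came from a GENCODE annotation, for 30212 of the first table's 32199 genes and 29690 of the second's 31719. Names of the 3 wild-type columns of the second table lack a genotype, and they were taken as wild type since the other 3 columns name the knockout. Sequencing depth is unknown from FPKM. FPKM summed to 700601 to 812981 per library in the first table and 385124 to 420279 in the second, with mitochondrially encoded genes at 52.0% to 60.0% and 24.1% to 29.2%, so the tables were treated as normalized separately, and a high share of such genes lowers the FPKM of all others.

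Values were analysed as log2(FPKM + 1), a pseudocount of 1 that understates changes of low genes, with limma 3.58.1 in R 4.3.3 (lmFit, eBayes with trend), each table by itself, keeping the 13986 and 14513 genes whose mean reached 0.5 FPKM. Adjusted p are limma's, two-sided, after Benjamini-Hochberg over every gene kept, with a threshold of 0.05. An SE beside a change is limma's moderated one, and errors beside levels are SD over 3 libraries. The difference between both changes was a contrast of 4 group means over 13010 genes. Exact permutation tests used 3 against 3 libraries. The fit was tested on simulated data. The text names the 8 genes, Padi4 and Il33, up to 4 genes of each list with the smallest p among those that passed, and the 3 genes most correlated with each of the 8, apart from a few that are not reported here. Ppargc1b, Kap, Cd68, Lyz2, Ucp1 and the values of overlapping and neighbouring genes were added after their values were seen. The members and lists were chosen with earlier results of these data known. Alternatives were other pseudocounts, level filters and scalings, array weights, no trend, a block for the replicate number, a colon and lung marker score as a covariate, and leaving out each library. Figures were drawn with matplotlib 3.10.9.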

Additional observations from a re-analysis of the deposited data

How the results depend on the processing

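Of the 7 genes tested in PAD4 knockout, 3 were called. The count was 0 with no filter on level (0 of all genes called, 6053 at an unadjusted p under 0.05, all by limma), 1 with a mean of at least 2 FPKM, which leaves 5 of the genes tested, 5 with median-of-ratios scaling and with array weights, and 0 with the colon and lung score as a covariate, and it ran between 0 and 4 when a library was left out. With no trend Ppargc1a was not called (adjusted p = 0.0667). All genes called numbered 2473, and 0, 5206 and 67 with no filter, array weights and the covariate, with 1064 to 3534 when a library was left out. In the IL-33 comparison the 5 genes called became 4 with no filter on level (Pax2 lost), 3 with the covariate and 3 to 5 when a library was left out, and 5671 genes in all became 1691 and 3626 to 6131. With the covariate Ppara turned to 0.66 and Il33 to 0.65, and Nr1h4 ran between -0.41 and 0.0047 when a library was left out (above 0 without wild-type library 2), none of them called. The estimation of array weights stopped before it converged in 2 fits. For the difference between both changes, array weights gave 1 call (Esrra), and leaving out libraries gave 0 in each fit. All genes called for it numbered 1615, and 1011 with a mean of at least 2 FPKM, 3041 with median-of-ratios scaling, 3112 with quantile normalization, 3525 with array weights, 367 with the covariate and 1055 to 1859 when a library was left out. Differences near 0 changed sign: Hnf4a ran between -0.42 and 0.015 and Pax2 between -0.34 and 0.20 when a library was left out, and Pax2 was 0.055 with a pseudocount of 0.1 and Lhx1 -0.048 with array weights. The cause was not tested. The covariate moved the median change of all genes to 0.34 in the IL-33 comparison and the other scalings moved it by under 0.1.

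Whether the replicate numbers pair the samples could not be told from the values. Deviations from the group means of same-numbered libraries correlated at -0.016, -0.11 and -0.15 in the first set and at -0.014, 0.13 and -0.0017 in the second. Those of differently numbered libraries correlated at -0.13 to 0.23 and at -0.12 to 0.13. With 3 libraries in a group the deviations are tied to each other, so such values cannot exclude a pairing. With the number as a block 1 of the 7 genes was called in PAD4 knockout (Lhx1), 5 of 8 in the IL-33 comparison and 0 for the difference.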
